A study of Mus musculus with 15 samples.

Results

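MHC class II molecules carry peptides from endosomes to the cell surface, where CD4 T cells read them. The genes described here are 10 of those that encode this machinery in the count table. These are the chains H2-Aa, H2-Ab1 and H2-Eb1, the invariant chain Cd74, the peptide exchange factor H2-DM (H2-DMa, H2-DMb1 and H2-DMb2), its inhibitor H2-O (H2-Oa and H2-Ob), and the transactivator Ciita. They were chosen by name from the 55385 genes of the table, and each is followed library by library. Invariant chain fills the groove of a newly made class II dimer and guides it to the endosome, and H2-DM then exchanges the last fragment of invariant chain for a peptide. CIITA is a coactivator without a DNA-binding domain of its own. It is recruited by RFX, CREB and NF-Y proteins on the shared promoter elements of these genes and is regarded as their master switch. Macrophages are among the cells that present by class II, and interferon gamma raises it through IRF1 and CIITA.

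The libraries were made from bone marrow-derived macrophages (BMDMs) of BALB/c mice aged 6 weeks. STAT5 cKO mice came from crosses of Csf1r-iCre mice with mice that carry floxed Stat5, and STAT5 fl/fl mice carried the floxed Stat5 with both genes still expressed. Csf1r-driven Cre acts in myeloid cells at large, not in macrophages alone. Cells of 2 STAT5 fl/fl mice (112 and 113) and 3 STAT5 cKO mice (114, 115 and 116) were each kept for 2 h in serum-free DMEM, in 20 ng/mL recombinant mouse GM-CSF (rmGM-CSF), or in 4T1 CM, the conditioned medium of 4T1 cells (a mammary tumor line of the mouse), which gave 15 libraries in 6 groups. The STAT5 fl/fl group had lost 1 replicate to quality control before deposit, per the study's methods.

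Library totals ran from 16016736 to 22883108 counts, and levels are given in CPM, the share of a library's counts on a common scale. Stat5a had 637 to 918 counts in the STAT5 fl/fl libraries and 0 to 3 in the STAT5 cKO libraries, and Stat5b had 977 to 1654 and 0 to 4, and these counts matched the labelled genotype in every library. All 10 macrophage markers passed the low-count filter, while Pax5, Blk and Fcer2a of the B cell list, Cd3g, Cd8a, Trac, Ncr1, Nkg7 and Klrb1c of the T and NK cell list, and Ly6g had 0 counts in every library. Of the 12 dendritic cell markers 5 passed the filter (Zbtb46, Itgax, Clec10a, Batf3 and Irf4), and their list summed to 40.4 to 109 CPM. The B cell list summed to 33.0 to 106 CPM, with Ighm alone past the filter, the T and NK cell list to 5.68 to 11.1, with Cd4 alone past it, the neutrophil list to 0.297 to 2.56, and the mesenchymal and endothelial list to 5.73 to 17.4.

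Apart from the genes of H2-O, every member was well expressed in every library. In TPM, which also corrects for gene length, Cd74 stood first with a median of 2127 over the 15 libraries (range 1350.4 to 3529), the 37th highest of all genes. The chains followed with medians of 209 TPM for H2-Eb1, 197 for H2-Ab1 and 162 for H2-Aa. H2-DMa had a median of 56.3 TPM, H2-DMb1 26.5, H2-DMb2 20.1 and Ciita 11.7. This order held between neighbors in all 15 libraries for Cd74 over H2-Eb1, H2-Ab1 over H2-Aa, H2-Aa over H2-DMa and H2-DMa over H2-DMb1. It held in 9 of 15 libraries for H2-Eb1 over H2-Ab1, in 13 for H2-DMb1 over H2-DMb2, and in 11 for H2-DMb2 over Ciita, so these neighbors were not separated by their spread. H2-Oa had 4 to 16 counts per library and H2-Ob 6 to 33, or medians of 1.14 and 0.313 TPM. Both were over the floor of 3 counts in all 15 libraries, but H2-Oa never exceeded 1 CPM and was not tested, and H2-Ob did so in only 3 libraries.

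Of the class II genes outside the 10, H2-Ea-ps was high in every library, with 2102 to 5466 counts and a median of 531 TPM. It encodes the alpha chain that pairs with H2-Eb1, and it is listed as a pseudogene because the C57BL/6 reference carries a promoter deletion that strains such as BALB/c lack. H2-Eb2 had 0 counts in every library. The reads came from BALB/c cells and were aligned to that C57BL/6 reference, whose class II alleles differ, and the effect of mismatches on the level of each chain was not tested. H2-DMb1 and H2-DMb2 are close paralogs side by side, and reads that map to both would fail the mapping quality minimum, so the split between them is uncertain.

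**Figure D1:**
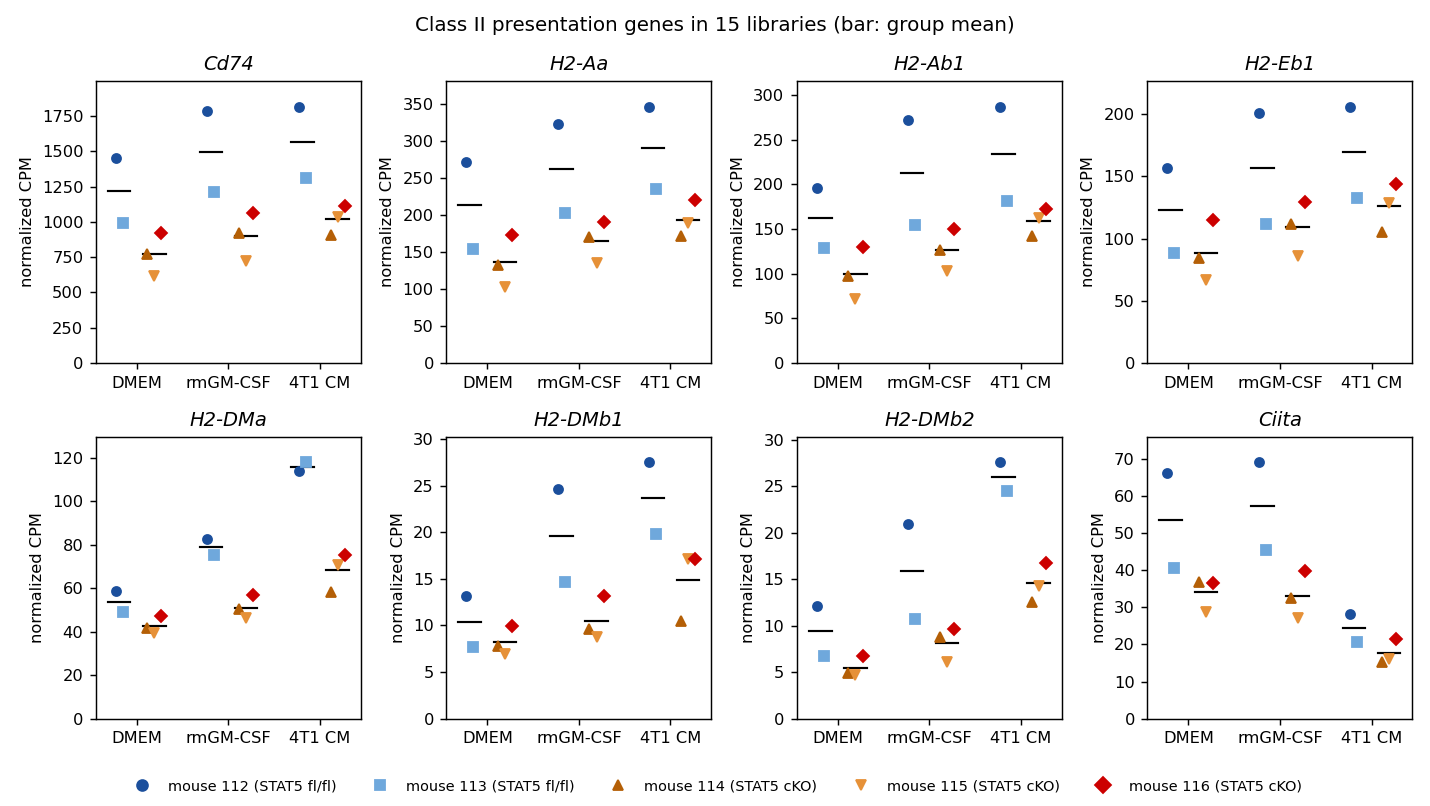
Normalized CPM (linear axis from 0) of the 8 well-expressed class II genes in each of the 15 libraries, by treatment, with STAT5 fl/fl on the left and STAT5 cKO on the right of each pair, a symbol for each mouse and a bar for each group mean. Mouse 112 is the highest of the 5 mice in 23 of 24 pairs of gene and treatment, and Ciita is the gene that falls with 4T1 CM.

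The members lie in 3 places of the genome. In GRCm38, 8 of them sit on chromosome 17, in the order H2-Oa (34092340 to 34095234), H2-DMa (34119541 to 34139101), H2-DMb2 (34143307 to 34151555), H2-DMb1 (34153072 to 34160230), H2-Ob (34238903 to 34254414), H2-Ab1 (34257689 to 34269419), H2-Aa (34282744 to 34287823) and H2-Eb1 (34305867 to 34316674). All are on the forward strand apart from H2-Aa. Ciita lies on chromosome 16 (10480059 to 10528418), and Cd74 on neither. H2-DMa overlaps Brd2, and Ciita overlaps Dexi, on the opposite strand, and the counts were made by strand.

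The promoters of class II genes are known for shared elements, and they are shown here for these. RefSeq windows from 250 bases before to 50 after the start site (GRCm38.p6) were found for 7 members, in the letters of the C57BL/6 reference. The stretches below are 75 bases long and are lined up on ATTGG, the reverse of the CCAAT motif that NF-Y binds. Capitals mark ATTGG, matches to AGNAAC (the core of the X1 box, bound by RFX) and matches to TGACGTCA (the X2 box, bound by CREB proteins), each searched on both strands. The coordinates are chr17:34305758-34305832 for H2-Eb1, chr17:34287847-34287921 for H2-Aa (reverse strand), chr17:34238798-34238872 for H2-Ob, chr17:34092286-34092360 for H2-Oa, chr17:34153080-34153154 for H2-DMb1 and chr17:34145109-34145183 for H2-DMb2.
H2-Eb1: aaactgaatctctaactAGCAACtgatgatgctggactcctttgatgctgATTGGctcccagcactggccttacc
H2-Aa: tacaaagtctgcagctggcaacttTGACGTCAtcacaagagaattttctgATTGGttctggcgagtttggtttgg
H2-Ob: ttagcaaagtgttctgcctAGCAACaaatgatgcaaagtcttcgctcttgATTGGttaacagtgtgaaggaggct
H2-Oa: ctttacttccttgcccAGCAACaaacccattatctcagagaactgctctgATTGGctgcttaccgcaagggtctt
H2-DMb1: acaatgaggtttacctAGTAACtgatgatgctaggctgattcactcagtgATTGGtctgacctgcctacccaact
H2-DMb2: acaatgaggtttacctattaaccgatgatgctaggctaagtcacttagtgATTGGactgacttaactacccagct

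In the printed stretches the first base of ATTGG lay between 43 and 90 bases before the start site. In H2-Eb1, H2-Ob, H2-Oa and H2-DMb1 a match to AGNAAC began 31 to 34 bases upstream of it. H2-Aa held the TGACGTCA match. H2-DMa is not printed: in 1 of its windows ATTGG began 198 bases before the start site, and the match to AGNAAC lay 3 bases past it. The stretches of H2-DMb1 and H2-DMb2 shared 65 of 75 bases (86.7%), against 26.7% to 42.7% for the other pairs, and where H2-DMb1 matched AGNAAC the letters of H2-DMb2 did not. CTGATTGG, the longer Y box, was in 3 of 8 member windows (H2-DMa has a pair of windows) and in 4.1% of all 32851 windows. AGCAAC was in 3 of 8 and 14.8%, AGNAAC, which includes it, in 5 of 8 and 48.1%, CCAAT in 7 of 8 and 37.4%, and TGACGTCA in 1 of 8 and 1.79%. TGCGTCA was in none of the member windows and in 2.12% of all. TTCNNNGAA, the element STAT5 binds, was in 1 of 8, that of H2-DMb2, where it began 218 bases before the start site, and in 8.3% of all windows. The matches describe letters only, not bound sites.

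Between the genotypes, the class II genes were lower in STAT5 cKO BMDMs in nearly all comparisons, but only H2-DMa passed the test. With DMEM, 0 of the 9 tested members passed an adjusted p of 0.01 (edgeR's quasi-likelihood F test over 13005 genes), where 2.35% of all tested genes did. Of the 9, 8 had a negative log2 fold change, with a median of -0.64, and 6 had an unadjusted p under 0.05. DESeq2, limma voom and edgeR's likelihood ratio test called 0 as well. The median over all genes was 0 in this comparison. With rmGM-CSF, 1 of 9 passed (9.93% of all genes), 9 of 9 were negative and the median was -0.73. With 4T1 CM, 1 of 9 passed (7.44% of all genes), 8 of 9 were negative and the median was -0.59. The calls changed when the filter on low counts was left out: 7, 8 and 8 members then passed in the 3 treatments, where 3.25%, 6.92% and 6.0% of 25884 genes did. The cause of this shift was not tested.

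H2-DMa, the alpha chain of H2-DM, was the member that passed. With DMEM it had 58.6 and 48.9 normalized CPM in mice 112 and 113, and 41.5, 39.3 and 47.4 in mice 114, 115 and 116. With rmGM-CSF it had 82.8 and 75.4 CPM against 50.3, 46.1 and 57.0, and with 4T1 CM 114 and 118 against 58.5, 70.8 and 75.2. The genotypes did not overlap in any treatment, and the gap was widest with 4T1 CM. The log2 fold change in STAT5 cKO was -0.33 with DMEM (SE 0.113, adjusted p = 0.0932), -0.63 with rmGM-CSF (SE 0.112, adjusted p = 0.000632) and -0.76 with 4T1 CM (SE 0.108, adjusted p = 0.000133, all from edgeR). Without mouse 112 the adjusted p with rmGM-CSF was 0.0204, at a log2 fold change of -0.56, while with 4T1 CM the call held without each of the 5 mice. The genotype difference itself did not pass as different between treatments: the interaction was -0.43 for 4T1 CM (SE 0.157, adjusted p = 0.19 from edgeR) and -0.30 for rmGM-CSF (SE 0.16, adjusted p = 0.421).

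The chains and Cd74 had lower means in STAT5 cKO but did not pass, and the STAT5 fl/fl mice themselves differed by 1.39 to 1.8 times. H2-Aa, the alpha chain of I-A, had 272 and 154 normalized CPM in mice 112 and 113 with DMEM, against 133, 103 and 173 in mice 114, 115 and 116. With rmGM-CSF it had 323 and 202 against 169.5, 135 and 191, and with 4T1 CM 346 and 235 against 171, 189.6 and 220.3. The genotypes overlapped with DMEM, where mouse 116 exceeded mouse 113, and did not overlap with rmGM-CSF or 4T1 CM. The log2 fold changes of H2-Aa were -0.64, -0.67 and -0.59 with the 3 treatments (SE 0.244 to 0.245, adjusted p of 0.134, 0.0716 and 0.123 from edgeR).

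H2-Ab1, the beta chain of I-A, followed the same order of mice, with 196 and 129 CPM against 96.9, 71.6 and 129.8 with DMEM. Its log2 fold changes were -0.71, -0.75 and -0.56, with adjusted p of 0.111, 0.0524 and 0.16 from edgeR. H2-Eb1, the beta chain of I-E, had 157 and 88.4 CPM against 84.5, 66.9 and 115 with DMEM, and its genotypes overlapped in every treatment. Its log2 fold changes were -0.47, -0.52 and -0.43 (adjusted p of 0.347, 0.227 and 0.333 from edgeR).

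Cd74 had 1449 and 994 CPM in mice 112 and 113 with DMEM, and 773, 616 and 924 in mice 114, 115 and 116. With rmGM-CSF it had 1786 and 1209.8 against 918, 726 and 1062, and with 4T1 CM 1816 and 1309 against 909, 1033 and 1111. The genotypes did not overlap in any treatment, although mouse 113 stood only 0.37, 0.42 and 0.36 above the STAT5 cKO mean on the log2 scale. The log2 fold changes of Cd74 were -0.66, -0.73 and -0.62 (SE 0.201, adjusted p of 0.0587, 0.0179 and 0.0484 from edgeR).

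H2-DMb1 and H2-DMb2, which encode the beta chain of H2-DM, had lower counts. With rmGM-CSF, H2-DMb1 had 24.6 and 14.6 CPM in the STAT5 fl/fl mice against 9.56, 8.78 and 13.2, a log2 fold change of -0.91 (SE 0.27, adjusted p = 0.0277 from edgeR). With 4T1 CM, H2-DMb2 had 27.6 and 24.5 CPM against 12.6, 14.3 and 16.8, a log2 fold change of -0.84 (SE 0.243, adjusted p = 0.0277). Neither gene passed 0.01 in any treatment. With DMEM, H2-DMb1 had 13.1 and 7.63 CPM against 7.76, 6.92 and 9.96, and its genotypes overlapped.

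Ciita had 66.1 and 40.7 CPM with DMEM in mice 112 and 113, and 36.8, 28.7 and 36.6 in mice 114, 115 and 116. With rmGM-CSF it had 69.1 and 45.5 against 32.4, 27.2 and 39.7, and with 4T1 CM 28.3 and 20.7 against 15.3, 16.1 and 21.4. The genotypes were apart with DMEM and rmGM-CSF and overlapped with 4T1 CM, where mouse 116 exceeded mouse 113. The log2 fold changes were -0.65, -0.80 and -0.48 (SE 0.212 to 0.232, adjusted p of 0.0782, 0.0165 and 0.188 from edgeR).

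The genes of H2-O did not follow the rest. H2-Oa had 4 and 6 counts in the STAT5 fl/fl mice with DMEM and 15, 10 and 12 in the STAT5 cKO mice, and with rmGM-CSF 8 and 4 against 16, 11 and 11. With 4T1 CM the counts were 8 and 6 against 6, 13 and 8. The genotypes of H2-Oa overlapped with 4T1 CM, and with rmGM-CSF once the counts were scaled to library size, and at this depth a difference of this gene was at the edge of detection. H2-Ob had at most 33 counts, in mouse 116 with 4T1 CM, and its genotypes overlapped in every treatment. Counting all 10 members, the genotypes did not overlap for 4 with DMEM (H2-DMa, Cd74, Ciita and, in the opposite direction, H2-Oa), 7 with rmGM-CSF and 6 with 4T1 CM. Over all tested genes, which leave out H2-Oa, the genotypes did not overlap for 39.8%, 49.0% and 39.3%, beside 3, 7 and 6 of the 9 tested members.

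**Figure D2:**
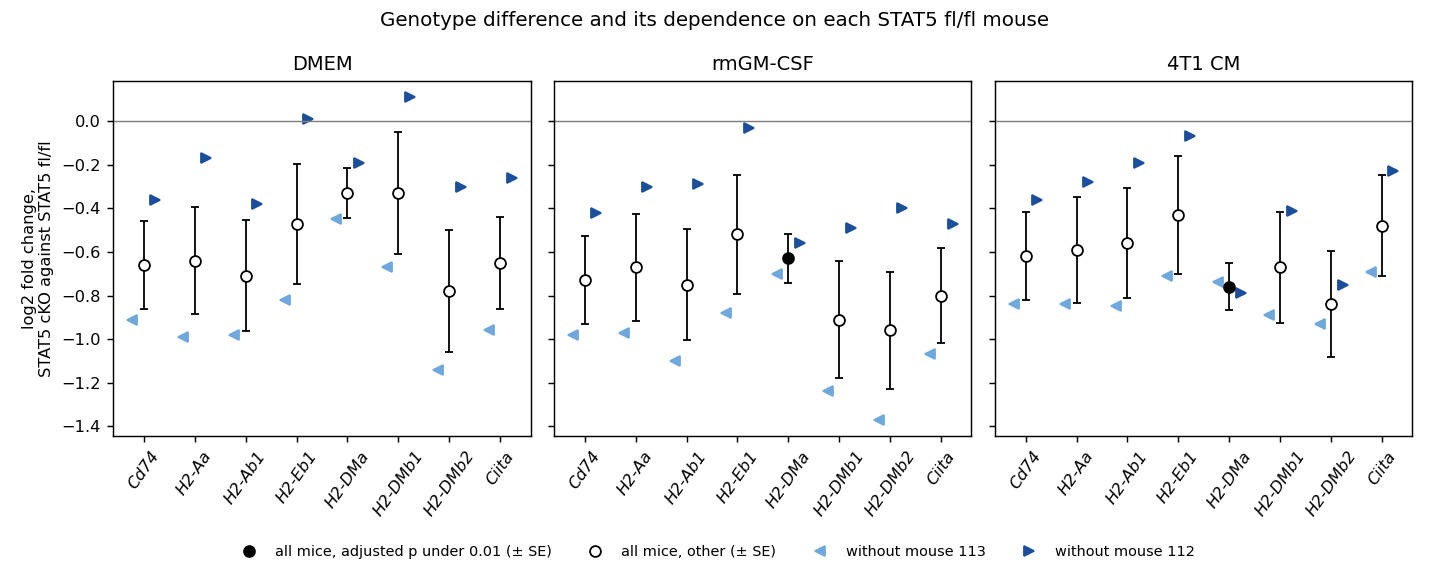
Log2 fold change (STAT5 cKO against STAT5 fl/fl, linear axis) of the 8 well-expressed genes with each treatment. Circles show all mice with the standard error and are filled where the adjusted p was under 0.01, and triangles show the value without mouse 112 or without mouse 113. Only H2-DMa is filled, with rmGM-CSF and 4T1 CM, and its triangles stay near the circle, while H2-Eb1 and H2-DMb1 reach 0.01 and 0.11 without mouse 112 with DMEM.

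The order of the mice was nearly the same across the genes. Among the 8 well-expressed genes and 3 treatments, mouse 112 was the highest of 5 in 23 of 24 cases, the exception being H2-DMa with 4T1 CM. Mouse 115 was the lowest in 16 of 16 cases with DMEM or rmGM-CSF, and mouse 114 was the lowest in 8 of 8 with 4T1 CM. The level in mouse 112 was 0.966 to 1.96 times that in mouse 113, and the highest STAT5 cKO mouse had 1.2 to 1.81 times the level of the lowest. Without mouse 112, the log2 fold change of Cd74 moved from -0.66 to -0.36 with DMEM, from -0.73 to -0.42 with rmGM-CSF and from -0.62 to -0.36 with 4T1 CM, and that of H2-Eb1 from -0.47 to 0.01 with DMEM. Without mouse 113, 6 members passed with rmGM-CSF in place of 1: H2-Ab1, H2-DMa, H2-DMb1, H2-DMb2, Cd74 and Ciita. The lone STAT5 fl/fl library left in each of these fits was assumed to vary like the other groups.

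Since each mouse enters all 3 treatments, the genotypes were also compared on counts summed per mouse. Of the 8 members tested in this way, 1 passed (8.1% of 12375 genes did), and all 8 were negative, with a median of -0.65. H2-DMa had a log2 fold change of -0.60 (SE 0.0758, adjusted p = 0.00161 from edgeR), which rose to an adjusted p of 0.0187 without mouse 112 and 0.0133 without mouse 113. The next were H2-DMb2 at -0.84 (adjusted p = 0.0137, and 0.00979 without mouse 113), Cd74 at -0.66 (0.0214) and Ciita at -0.67 (0.0264). On the mean log2 CPM of each mouse, H2-DMa had 6.36 and 6.24 in mice 112 and 113 against 5.64, 5.66 and 5.88. The genotypes did not overlap for H2-DMa, H2-DMb2, Cd74 and Ciita, each with a two-sided exact permutation p of 0.1, the smallest that 10 divisions of 5 mice allow. H2-Aa and H2-Ab1 were also apart, by a narrow gap, at an exact permutation p of 0.2, H2-Eb1 and H2-DMb1 had 0.3 and overlapped, H2-Oa was higher in STAT5 cKO by 0.66 (exact permutation p = 0.1) and H2-Ob had 0.8. On this measure the genotypes did not overlap for 6 of the 9 tested members and for 52.1% of the 13005 tested genes.

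Other genes moved with genotype in the same libraries. The 10 macrophage markers summed to 33368 to 33959 CPM in STAT5 fl/fl and 40627 to 47405 in STAT5 cKO libraries with DMEM, 30970 to 31902 and 41532 to 44533 with rmGM-CSF, and 35593 to 36031 and 43489 to 52714 with 4T1 CM. Such a sum is weighted to its most abundant genes, and the median log2 fold change of the 10 markers was 0.05, -0.05 and -0.07. Of the 10, Lyz2 rose in STAT5 cKO in each treatment (log2 fold change of 0.63, 0.63 and 0.60). Cd14 rose with DMEM and 4T1 CM (0.48 and 0.51), and Mrc1 fell in each (-1.22, -1.86 and -1.48). The dendritic cell list summed to 51.0 to 58.3 CPM in STAT5 fl/fl against 40.4 to 48.7 with DMEM, 98.0 to 109 against 41.7 to 51.5 with rmGM-CSF, and 58.5 to 63.5 against 49.8 to 60.6 with 4T1 CM. Mouse 112 had the highest dendritic cell sum in each treatment (58.3, 109 and 63.5 CPM), but not the highest B cell sum, which was that of mouse 114. The T and NK cell list summed to 10.8 to 11.1 CPM in STAT5 fl/fl against 6.69 to 7.93 with DMEM, 8.72 to 8.73 against 5.68 to 6.37 with rmGM-CSF, and 8.56 to 9.22 against 6.33 to 6.43 with 4T1 CM. In that list 8 of 9 genes had at most 3 counts in every library, so its sum was nearly that of Cd4 alone. Cd4, its 1 tested gene, fell in STAT5 cKO in each treatment (log2 fold change of -0.56, -0.59 and -0.48). The mesenchymal and endothelial list was higher in STAT5 cKO libraries, with 10.1 to 10.7 CPM against 15.8 to 17.4 with DMEM, 5.73 to 6.89 against 11.1 to 13.4 with rmGM-CSF, and 6.45 to 7.77 against 10.5 to 16 with 4T1 CM. Of its 3 tested genes (Col1a1, Col1a2 and Pdgfrb), 0 passed in edgeR in each treatment, where 2.35%, 9.93% and 7.44% of all genes did. All 3 had an unadjusted p under 0.05, and DESeq2 called 1, 1 and 2. The paper reported higher Col1a1 RNA in STAT5 cKO macrophages by qRT-PCR. The genotypes overlapped in the B cell sum in each treatment, and in the neutrophil sum with DMEM and 4T1 CM but not with rmGM-CSF (0.297 to 0.304 CPM against 0.488 to 1.14). The part of these differences in the class II result was not tested, and in bulk RNA fewer cells of a type and less RNA per cell cannot be told apart.

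Between the treatments the class II genes differed in another pattern. With 4T1 CM, Ciita fell in both genotypes while H2-DMa, H2-DMb1 and H2-DMb2 rose. With DMEM, rmGM-CSF and 4T1 CM in turn, Ciita had 66.1, 69.1 and 28.3 CPM in mouse 112, and 40.7, 45.5 and 20.7 in mouse 113. In mouse 114 the values were 36.8, 32.4 and 15.3, in mouse 115 28.7, 27.2 and 16.1, and in mouse 116 36.6, 39.7 and 21.4. Every 4T1 CM library lay below every DMEM and rmGM-CSF library of its own genotype. The log2 fold change of 4T1 CM against DMEM was -1.12 in STAT5 fl/fl (SE 0.242, adjusted p = 0.000991) and -0.95 in STAT5 cKO (SE 0.204, adjusted p = 0.000898), and against rmGM-CSF it was -1.22 and -0.90 (adjusted p of 0.000642 and 0.00171, all from edgeR). Without mouse 114 the STAT5 cKO values were -0.80 (adjusted p = 0.0235) and -0.83 (0.023). The interaction of Ciita with 4T1 CM was 0.17 (SE 0.316, adjusted p = 0.879). With rmGM-CSF, Ciita moved by 0.10 in STAT5 fl/fl (SE 0.232, adjusted p = 0.771) and by -0.05 in STAT5 cKO (SE 0.197, adjusted p = 0.881).

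The peptide exchange factor rose with 4T1 CM. H2-DMa had 58.6 and 48.9 CPM with DMEM and 114 and 118 with 4T1 CM in the STAT5 fl/fl mice, a log2 fold change of 1.11 (SE 0.122, adjusted p = 8.51e-07), and in STAT5 cKO it rose by 0.67 (SE 0.101, adjusted p = 2.65e-05). Within mice the rise of H2-DMa was 0.96 and 1.27 in STAT5 fl/fl and 0.50, 0.85 and 0.67 in STAT5 cKO, without overlap. The interaction of -0.43 had an unadjusted p of 0.0139 (adjusted p = 0.19 from edgeR), and with the mouse as a replicate block it was -0.44 (adjusted p = 0.0409), which did not pass 0.01. H2-DMa was the 1 of 9 tested members whose change with 4T1 CM did not overlap between genotypes, as was so for 29.8% of 12937 genes. H2-DMb2 rose from 12.1 and 6.74 to 27.6 and 24.5 CPM in STAT5 fl/fl and from 4.87, 4.74 and 6.75 to 12.6, 14.3 and 16.8 in STAT5 cKO. These were log2 fold changes of 1.47 (SE 0.28, adjusted p = 0.000319) and 1.41 (SE 0.247, adjusted p = 0.000137). H2-DMb1 rose by 1.2 (SE 0.29, adjusted p = 0.00251) and 0.86 (SE 0.247, adjusted p = 0.00822, all from edgeR). The summed counts of H2-DMb1 and H2-DMb2, which do not depend on the split, went from 25.2 and 14.4 CPM to 55.2 and 44.3 in STAT5 fl/fl and from 12.6, 11.7 and 16.7 to 23.1, 31.4 and 33.8 in STAT5 cKO. The call of H2-DMb1 in STAT5 fl/fl was lost without mouse 113 (adjusted p = 0.0213), and in STAT5 cKO without mouse 115 (0.112) or 116 (0.0221).

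With these, 4 of 9 members passed for 4T1 CM against DMEM in STAT5 fl/fl (37.2% of all genes did), 3 higher and Ciita lower, and the same 4 passed in STAT5 cKO (37.2% of all genes). A share of 4 in 9 is near that background. The chains and Cd74 had positive values that did not pass: in STAT5 fl/fl 0.45 for H2-Aa, 0.52 for H2-Ab1, 0.47 for H2-Eb1 and 0.36 for Cd74 (adjusted p of 0.136 to 0.215 from edgeR), and in STAT5 cKO 0.51, 0.68, 0.51 and 0.40 (adjusted p of 0.0229 to 0.102). Leaving out 1 mouse gave log2 fold changes of H2-Ab1 in STAT5 cKO from 0.47 to 0.85. The adjusted p was then up to 0.165 from edgeR. Mice 112 and 113 do not enter this comparison, and without them the value was 0.68 and 0.67. Within each mouse the change was of one sign. Against its own DMEM library, Cd74 was higher by 0.23 to 0.75 on the log2 scale in 5 of 5 mice, H2-Aa by 0.35 to 0.88, H2-Ab1 by 0.42 to 1.18 and H2-Eb1 by 0.31 to 0.95, while Ciita was lower by 0.78 to 1.27 in 5 of 5. The largest rise of each chain and of Cd74 was that of mouse 115, whose 4T1 CM library also had the highest macrophage marker sum (52714 CPM). Any link between that sum and the rise was not tested.

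With the mouse as a replicate block, which compares the treatments within each mouse, 8 of 9 members passed for 4T1 CM against DMEM in both genotypes, where 39.5% of all genes passed in STAT5 fl/fl and 39.4% in STAT5 cKO. These were the 4 above with H2-Aa, H2-Ab1, H2-Eb1 and Cd74, whose log2 fold changes were 0.48, 0.51, 0.49 and 0.36 in STAT5 fl/fl (adjusted p of 0.000869 to 0.00569 from edgeR) and 0.53, 0.71, 0.54 and 0.42 in STAT5 cKO (adjusted p of 9.79e-06 to 0.000325). Ciita had -1.11 and -0.96 with the block (adjusted p of 9.82e-08 and 7.06e-08). The calls of the chains and Cd74 depended on how the mouse entered the fit. In limma voom with the mouse as a random effect, a single correlation between libraries of a mouse was estimated over all tested genes, at 0.0681. It was not estimated for the class II genes alone. In this fit 4 members passed in STAT5 fl/fl and 5 in STAT5 cKO. H2-Aa, H2-Ab1, H2-Eb1 and Cd74 then had adjusted p of 0.112, 0.103, 0.147 and 0.148 in STAT5 fl/fl and of 0.0383, 0.00989, 0.062 and 0.0473 in STAT5 cKO.

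**Figure D3:**
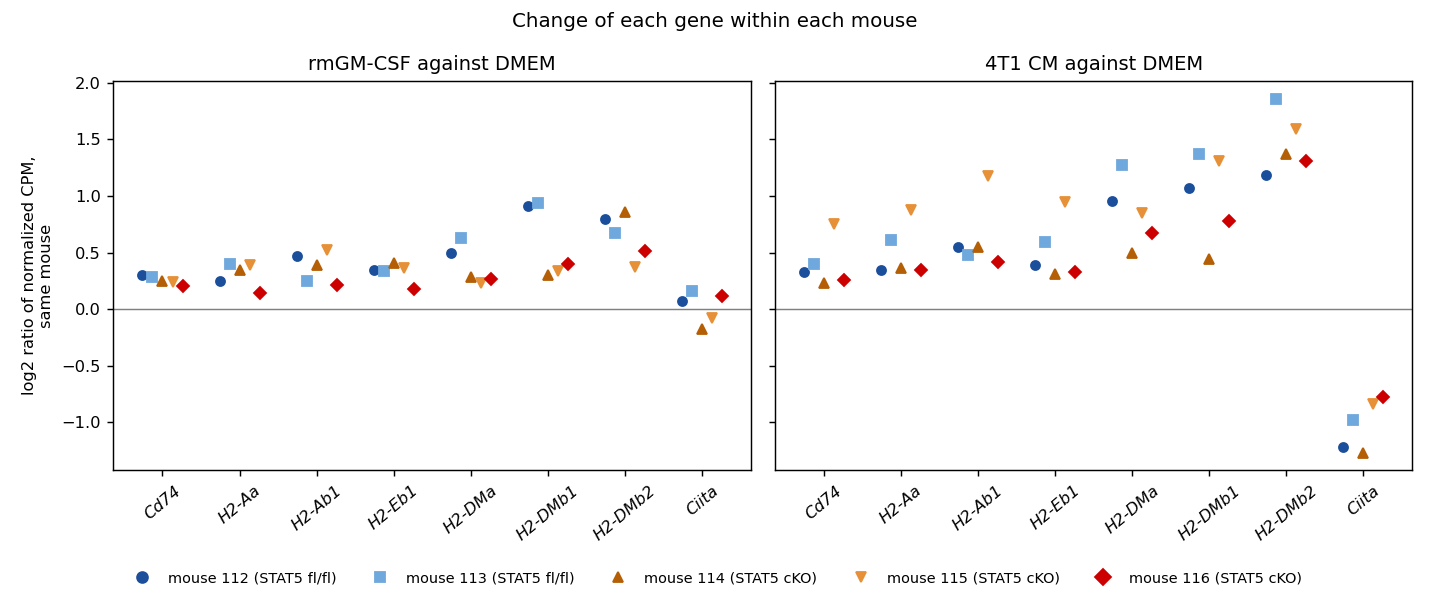
Log2 ratio of normalized CPM to the DMEM library of the same mouse (linear axis) for the 8 well-expressed genes, with rmGM-CSF on the left and 4T1 CM on the right and a symbol for each mouse. With 4T1 CM all 5 mice are above 0 for the chains, Cd74 and H2-DM and between -1.27 and -0.78 for Ciita, and with rmGM-CSF Ciita lies between -0.18 and 0.16.

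The counts of its targets were also set against those of Ciita within a library, as a ratio that no normalization affects. A fall of Ciita alone would raise this ratio, so it does not show which of the genes moved. With DMEM there were 3.59 to 4.72 counts of H2-Aa for each count of Ciita, with rmGM-CSF 4.45 to 5.23, and with 4T1 CM 10.3 to 12.2. For Cd74 the ratios were 21.0 to 25.3, 25.8 to 28.3 and 52.0 to 64.4. The 4T1 CM libraries did not overlap the others, and the spread among the 5 mice of a treatment was small beside the gap. The genotypes overlapped in both ratios with DMEM and with 4T1 CM, where mouse 115 and mouse 112 had the highest values for Cd74 (64.4 and 64.2). With rmGM-CSF they did not. The H2-Aa ratio was then 4.67 and 4.45 in STAT5 fl/fl against 5.23, 4.96 and 4.8 in STAT5 cKO. For Cd74 it was 25.8 and 26.6 against 28.3, 26.7 and 26.8, a narrow gap. These differences were not tested.

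**Figure D4:**
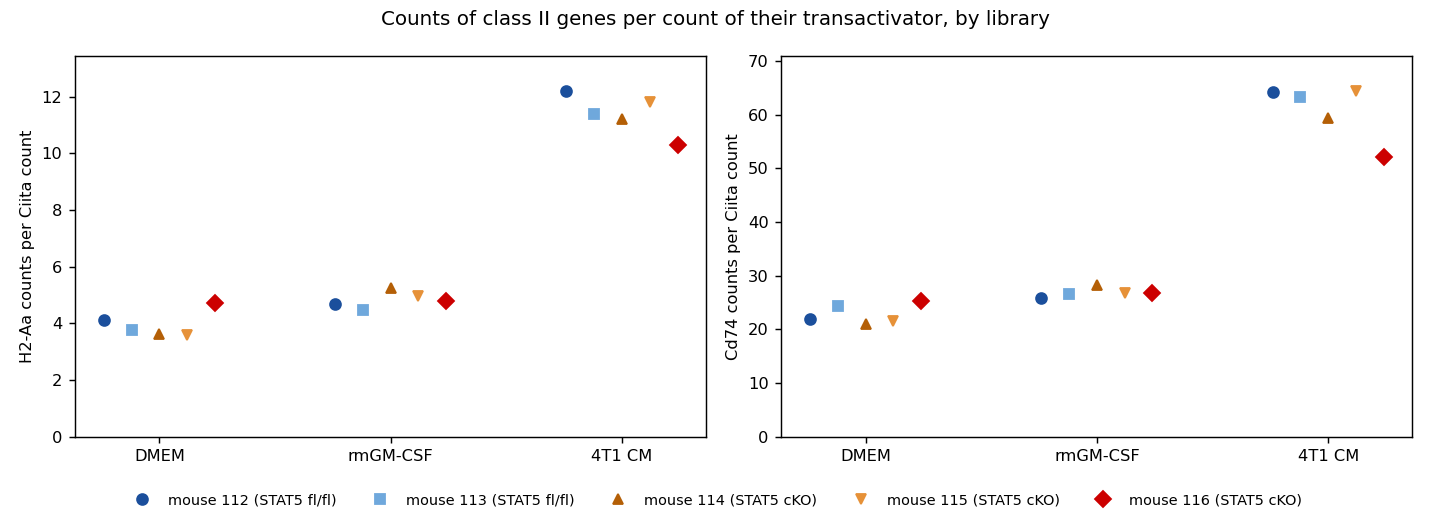
Counts of H2-Aa (left) and Cd74 (right) per count of Ciita in each of the 15 libraries, by treatment (linear axes from 0), with a symbol for each mouse. The 4T1 CM libraries lie at 10.3 to 12.2 and 52.0 to 64.4, above all DMEM and rmGM-CSF libraries, with both genotypes together.

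With rmGM-CSF the changes were smaller, and Ciita did not move past its error. In STAT5 fl/fl 1 of 9 members passed against DMEM, where 28.7% of all genes did. It was H2-DMa at 0.56 (SE 0.123, adjusted p = 0.00154), which was at an adjusted p of 0.0208 without mouse 112 and 0.0597 without mouse 113. In STAT5 cKO 0 of 9 passed (23.5% of all genes did), 2 had an unadjusted p under 0.05, DESeq2 and limma voom called 0, and H2-DMa was at 0.25 (SE 0.102, adjusted p = 0.0646, all from edgeR). All 9 values were positive in STAT5 fl/fl (median 0.39) and 8 of 9 in STAT5 cKO (median 0.30). Within each mouse Cd74 was higher than with DMEM by 0.20 to 0.30, H2-Aa by 0.14 to 0.40 and H2-DMb2 by 0.37 to 0.86, in 5 of 5 mice each. With the replicate block 3 members passed in STAT5 fl/fl (H2-DMa, H2-DMb1 and H2-DMb2, the last at an adjusted p of 0.00256), where 30.9% of all genes did, and 2 in STAT5 cKO (H2-Ab1 at 0.0081 and H2-DMb2 at 0.00962), where 25.5% did. In limma voom with the mouse as a random effect 1 and 0 passed.

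The changes with rmGM-CSF within mice did not overlap between the genotypes for 4 of the 9 tested members (H2-DMa, H2-DMb1, H2-Ob and Cd74), as was so for 35.1% of 12937 genes. Against its own DMEM library, H2-DMb1 was higher by 0.91 and 0.94 on the log2 scale in the STAT5 fl/fl mice and by 0.30, 0.34 and 0.40 in the STAT5 cKO mice. H2-DMa was higher by 0.50 and 0.63 against 0.28, 0.23 and 0.27. The interactions did not pass: -0.58 for H2-DMb1 (SE 0.391, adjusted p = 0.596) and -0.30 for H2-DMa (SE 0.16, adjusted p = 0.421, both from edgeR). Over the members, 0 of 9 interactions passed for rmGM-CSF (3.16% of all genes did) with 0 at an unadjusted p under 0.05, and 0 of 9 for 4T1 CM (1.31% of all genes) with 1, that of H2-DMa. DESeq2, limma voom and the fit with the replicate block called 0 of these as well.

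Between the stimuli, 2 of 9 members passed in STAT5 fl/fl for 4T1 CM against rmGM-CSF (30.9% of all genes did), Ciita lower and H2-DMa higher by 0.55 (SE 0.121, adjusted p = 0.00142). In STAT5 cKO 3 of 9 passed (34.1% of all genes), Ciita lower, H2-DMa higher by 0.42 (SE 0.101, adjusted p = 0.00256) and H2-DMb2 higher by 0.84 (SE 0.242, adjusted p = 0.00857, all from edgeR). The STAT5 fl/fl call of H2-DMa was lost without either mouse (adjusted p of 0.0137 and 0.082), and that of H2-DMb2 in STAT5 cKO without any of its 3 mice (0.0186 to 0.0866). The STAT5 cKO calls of H2-DMa and Ciita were lost without mouse 115 (0.0495) and mouse 114 (0.023), respectively. With the replicate block 5 members passed in STAT5 cKO (36.2% of all genes did), H2-Ab1 and H2-DMb1 besides these. In STAT5 fl/fl 3 passed (33.0% of all genes), with H2-DMb2 added (log2 fold change of 0.78, adjusted p = 0.000945 from edgeR). Unpaired, the log2 fold change of H2-DMb2 in STAT5 fl/fl was 0.73, and it was 1.19 without mouse 112 and 0.39 without mouse 113. Without the block, the chains and Cd74 had differences between the stimuli of 0.06 to 0.15 in STAT5 fl/fl and 0.17 to 0.33 in STAT5 cKO, and none passed. The 3 comparisons of treatments within a genotype share libraries, so they are not independent of each other.

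The proteins that recruit CIITA to the promoter (RFX, NF-Y and CREB) and its chromatin-modifying partners showed no call between genotypes. Of the 12 genes of this list, 0 passed in edgeR with DMEM, rmGM-CSF or 4T1 CM, 1, 3 and 0 had an unadjusted p under 0.05, and DESeq2, limma voom and the likelihood ratio test called 0. The medians were -0.08, -0.06 and -0.02. Of all genes, 2.35%, 9.93% and 7.44% were called in these comparisons. Between treatments, 5 of the 12 passed for 4T1 CM against DMEM in STAT5 fl/fl (3 lower, 2 higher) and 4 in STAT5 cKO (2 lower, 2 higher), and 2 and 4 passed for rmGM-CSF against DMEM, all higher. The shares of all genes in these comparisons were 37.2% in both genotypes for 4T1 CM and 28.7% and 23.5% for rmGM-CSF. With 4T1 CM against DMEM, Nfyb, a subunit of NF-Y, rose by 1.61 in STAT5 fl/fl (SE 0.128, adjusted p = 1.31e-08) and 1.68 in STAT5 cKO (SE 0.104, adjusted p = 4.57e-10). Nfya rose by 0.59 and 0.54, while the acetyltransferase Ep300 fell (-0.85 and -0.68) and so did the RFX subunit Rfxank (-0.58 in both). Creb1 rose with rmGM-CSF by 0.70 and 0.62, and Rfx5 was lower with 4T1 CM than with rmGM-CSF (-0.72 in STAT5 fl/fl and -0.75 in STAT5 cKO).

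Several genes known to act on Ciita transcription differed between the genotypes. Of the 16 on this list, 5 fell and 2 rose in STAT5 cKO with rmGM-CSF, 1 fell with DMEM, and 1 fell and 1 rose with 4T1 CM. Over all genes, 9.93% were called with rmGM-CSF, 2.35% with DMEM and 7.44% with 4T1 CM. Irf8, which sets the macrophage and dendritic cell program, had 253 and 259.8 CPM in STAT5 fl/fl with rmGM-CSF against 148, 141 and 163 in STAT5 cKO, a log2 fold change of -0.76 (SE 0.0713, adjusted p = 5.99e-07). It was -0.48 with 4T1 CM (adjusted p = 0.000185) and -0.24 with DMEM (adjusted p = 0.0522, all from edgeR). The genotypes of Irf8 did not overlap in any treatment, and mouse 113 was above mouse 112 in all 3. Among the 8 well-expressed class II genes this was so only for H2-DMa with 4T1 CM. Irf4 was lower with DMEM (-1.03) and rmGM-CSF (-2.05), and Socs1 (-1.66), Irf1 (-0.51) and Jak2 (-0.31) with rmGM-CSF. Bcl6, a repressor, was higher by 4.02 with rmGM-CSF and 2.78 with 4T1 CM.

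Irf1, the interferon-induced factor that binds a promoter of Ciita, responded to the treatments in opposite directions. It had 86.5 CPM with DMEM in both STAT5 fl/fl mice, 342 and 337 with rmGM-CSF and 44.5 and 47.5 with 4T1 CM. Against DMEM the log2 fold changes were 1.97 with rmGM-CSF (SE 0.0912, adjusted p = 1.6e-11) and -0.91 with 4T1 CM (SE 0.0932, adjusted p = 3.38e-07), and in STAT5 cKO 1.65 and -0.80 (SE 0.0742 and 0.0761, adjusted p of 1.56e-11 and 1.27e-07, all from edgeR). Ciita fell in the comparison where Irf1 fell and did not pass where Irf1 rose. Their link was not tested. Jak2 rose with both, by 1.42 and 2.25 in STAT5 fl/fl.

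**Figure D5:**
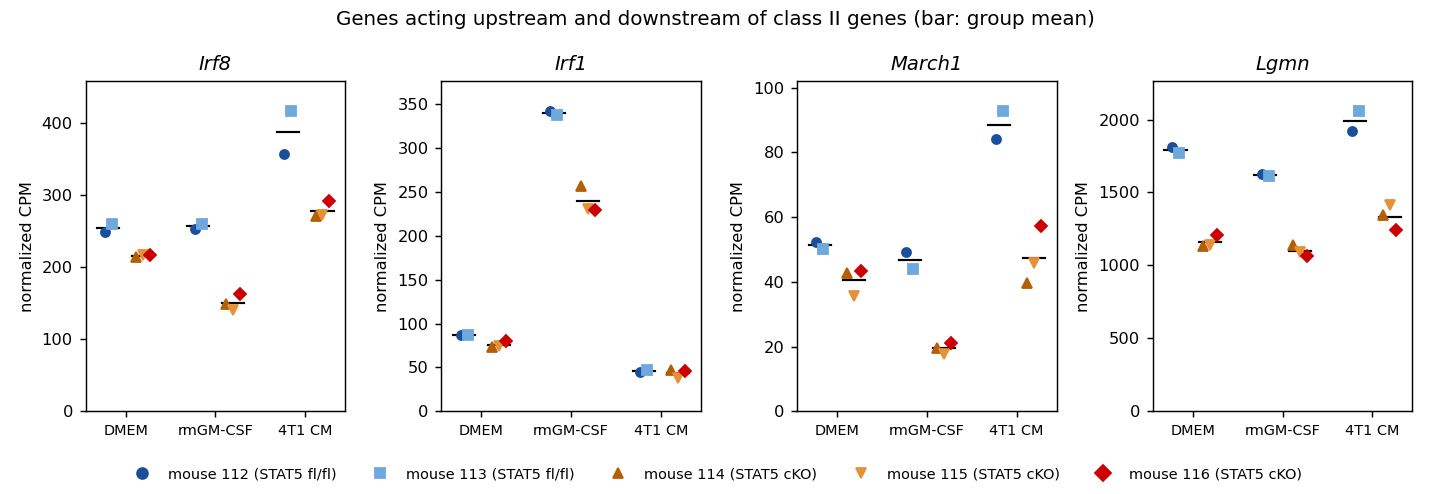
Normalized CPM (linear axes from 0) in each library of Irf8 and Irf1, which act on Ciita, of March1, which removes class II from the surface, and of Lgmn, an endosomal protease, with STAT5 fl/fl on the left and STAT5 cKO on the right of each pair, a symbol for each mouse and a bar for each group mean. For Irf8, March1 and Lgmn both STAT5 fl/fl mice lie above all STAT5 cKO mice in each treatment.

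Downstream of transcription, single genes separated the genotypes. March1, the ubiquitin ligase that sends surface class II to the lysosome, had 49.2 and 44.1 CPM with rmGM-CSF in STAT5 fl/fl and 19.6, 17.7 and 21.1 in STAT5 cKO, a log2 fold change of -1.27 (SE 0.13, adjusted p = 1.99e-06). With 4T1 CM the change was -0.90 (SE 0.12, adjusted p = 7.53e-05) and with DMEM -0.34 (SE 0.123, adjusted p = 0.115). It was the 1 gene of 14 in the list of trafficking and turnover that passed with either stimulus, and the 1 whose response to rmGM-CSF differed between genotypes: it went by -0.14 in STAT5 fl/fl (adjusted p = 0.457) and by -1.07 in STAT5 cKO (adjusted p = 1.98e-06), an interaction of -0.93 (SE 0.181, adjusted p = 0.00377, all from edgeR). Of the 9 genes of endosomal processing, Lgmn alone passed between genotypes. Over all genes, 2.35%, 9.93% and 7.44% were called between genotypes with DMEM, rmGM-CSF and 4T1 CM, and 3.16% in the interaction for rmGM-CSF. With the stimuli, 1 of 14 and 1 of 9 are near these shares. Lgmn had 1809.6 and 1771 CPM with DMEM in STAT5 fl/fl and 1134, 1139 and 1206 in STAT5 cKO, and its log2 fold changes were -0.63, -0.56 and -0.58 with the 3 treatments (SE 0.065 to 0.0651, adjusted p of 2.86e-05, 8.5e-06 and 1.3e-05 from edgeR). Ctss, the protease that trims invariant chain, had 3696 to 4121 CPM in STAT5 fl/fl with DMEM and 3625 to 4311 in STAT5 cKO, with overlapping genotypes.

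Genes of the costimulation list, whose products give CD4 T cells a further signal beside class II, rose with rmGM-CSF. The list also holds Cd274 and Pdcd1lg2, which encode inhibitory ligands. With rmGM-CSF against DMEM, 6 of the 6 tested of the costimulation list rose in both genotypes, where 28.7% and 23.5% of all genes were called. Their medians were 2.77 and 2.17, beside 0.39 and 0.30 for the class II members. Cd274, which encodes PD-L1, was lower in STAT5 cKO in each treatment (-0.40, -2.17 and -1.06), and Cd80 and Cd40 with rmGM-CSF (-0.70 and -0.69), while Icosl was higher with DMEM (0.86). The class I genes that share the region or the pathway (Tap1, Tap2, Psmb8, Psmb9, Tapbp, H2-K1, H2-D1 and B2m) had 0 of 8 past the edgeR test between genotypes in each treatment, with 1, 3 and 2 at an unadjusted p under 0.05 and 0 by DESeq2, limma voom and the likelihood ratio test. Between genotypes, 2.35%, 9.93% and 7.44% of all genes were called with DMEM, rmGM-CSF and 4T1 CM. With 4T1 CM against DMEM 4 of 8 rose in STAT5 fl/fl and 7 of 8 in STAT5 cKO, and Tap1 had 1.15 in STAT5 fl/fl. Of all genes, 37.2% were called in each of these. Between H2-Oa and H2-Ea-ps, the tested genes besides the members and H2-Ea-ps were Brd2, Psmb9, Tap1, Psmb8 and Tap2.

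Genes of like pattern were sought by the Pearson correlation with the mean standardized log2 CPM of H2-Aa, H2-Ab1, H2-Eb1 and Cd74 over the 15 libraries, which share 5 mice. The first was H2-Ea-ps at 0.972, ahead of Stx4a at 0.864, Ston2 at 0.831, H2-Q5 at 0.823 and 2700038G22Rik at 0.821. Among the members, H2-DMb1 had 0.918, H2-DMb2 0.892, H2-DMa 0.829 and H2-Ob 0.657, while Ciita had 0.261. After the group means were removed, so that only the differences among mice of a group remained, Ciita had 0.933 and H2-DMa 0.771, and H2-Ea-ps again led the other genes at 0.985, ahead of Emc1 at 0.911, Adgre5 at 0.909, Enpp4 at 0.901 and Txndc16 at 0.898. Ciita thus followed the chains from mouse to mouse within a group and not across the treatments. H2-Ea-ps itself had 204 and 113 CPM in the STAT5 fl/fl mice with DMEM and 109.9, 91.4 and 155 in the STAT5 cKO mice, with log2 fold changes between the genotypes of -0.41, -0.50 and -0.41 that did not pass (adjusted p of 0.205 to 0.379 from edgeR).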

How the data were processed

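RNA was sequenced from BMDMs of 5 mice in 3 treatments. The deposited values are raw counts of read pairs per gene: per the study's methods and the submitters' processing notes, the authors trimmed with trimmomatic, aligned to GRCm38 with HISAT2 and counted with featureCounts (both ends mapped, mapping quality of at least 10, by strand). Gene positions and lengths were taken from the same deposited file. The file header names 5 further libraries, not analysed here.

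All 15 libraries entered 1 edgeR (4.0.16, R 4.3.3) model with 6 groups, RLE normalization and genes over 1 CPM in at least 2 libraries (13005), as the study's methods state. Contrasts were tested by the quasi-likelihood F test with Benjamini-Hochberg adjustment, called at an adjusted p under 0.01. Counts were also summed per mouse (12375 genes), and per-mouse means were compared by an exact permutation test. TPM used the deposited exon lengths. The count floor was 3 counts, or 0.131 to 0.187 CPM, and covers counting error only. The scripts were tested on simulated data. Promoter windows came from RefSeq. Alternatives were TMM, other filters, a threshold of 0.05, the likelihood ratio test, DESeq2 1.42.0, limma 3.58.1 voom, fits of only the groups compared, the replicate block and leaving out each mouse.

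Mouse numbers in the sample titles each occur in 1 genotype and all 3 treatments and were taken as the animal. Deviations of same-numbered libraries from their group means correlated at 0.0926 to 0.213 in STAT5 fl/fl (3 distinct values, since the deviations of 2 mice mirror each other) and 0.0547 to 0.214 in STAT5 cKO (9 pairs). Genotype contrasts cannot take this block.

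The members and gene lists were chosen with earlier results of these data known. The named genes are all members and, of each list, genes that passed (at most 5 per comparison), plus Ctss, Cd4, Cd14, Lyz2 and Mrc1, chosen after their values were seen. Some genes of these lists are not reported here. Genes of like pattern are the 5 with the highest correlation.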

Additional observations from a re-analysis of the deposited data

How the results depend on the processing

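Of 1100 log2 fold changes of a member under an alternative, 966 kept their direction and side of the threshold, 113 gained a call, 18 lost one and 3 reversed. Leaving out 1 mouse reversed H2-Eb1 (0.01, range -0.82 to 0.01) and H2-DMb1 (0.11, range -0.67 to 0.11) between genotypes with DMEM, both without mouse 112, and Ciita with rmGM-CSF in STAT5 cKO (0.02 without mouse 114, range -0.14 to 0.02). The count of members called between genotypes moved from 0, 1 and 1 with DMEM, rmGM-CSF and 4T1 CM to 7, 8 and 8 with no filter on low counts, and on counts summed per mouse from 1 to 8. With no filter it also moved to 7 and 6 for rmGM-CSF against DMEM in STAT5 fl/fl and STAT5 cKO, to 8 and 8 for 4T1 CM against DMEM, and to 6 for 4T1 CM against rmGM-CSF in STAT5 cKO. For the genotype with rmGM-CSF the likelihood ratio test called 5, the fit of only the compared groups 6 and the 0.05 threshold 5, and with 4T1 CM the fit of only the compared groups called 2, the 0.05 threshold 3 and limma voom 2. Summed per mouse, the likelihood ratio test called 6, DESeq2 2 and the 0.05 threshold 5, and for rmGM-CSF against DMEM in STAT5 fl/fl the likelihood ratio test and the fit of only the compared groups called 2 and the 0.05 threshold 3. The cause of these shifts was not tested. TMM and filterByExpr moved no count of members by over 1.5 times.

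With the replicate block, which pairs libraries by mouse, the counts were 3 and 2 for rmGM-CSF against DMEM in STAT5 fl/fl and STAT5 cKO, 8 and 8 for 4T1 CM against DMEM, 3 and 5 for 4T1 CM against rmGM-CSF, and 0 for both interactions. Leaving out 1 mouse gave 0 to 6 members called between genotypes with rmGM-CSF, 0 to 1 for rmGM-CSF against DMEM in STAT5 fl/fl, 0 to 1 summed per mouse, 1 to 2 and 1 to 3 for 4T1 CM against rmGM-CSF in STAT5 fl/fl and STAT5 cKO, and 3 to 4 and 3 to 5 for 4T1 CM against DMEM. Per mouse, the difference of H2-Ob reversed to 0.29, 0.11 and 0.08 without mouse 112, 114 or 115 (range -0.47 to 0.29), that of H2-Eb1 was -0.06 and -0.83 without mouse 112 or 113, and that of H2-Oa was 0.80 and 0.51.

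Over all genes, the calls between genotypes were 306 with DMEM (278 to 883 under the alternatives that keep all mice, 43 to 246 without a mouse), 1292 with rmGM-CSF (1242 to 2205, 555 to 1008), 968 with 4T1 CM (279 to 1910, 324 to 800) and 1002 summed per mouse (995 to 2599, 257 to 748). For rmGM-CSF against DMEM they were 3730 in STAT5 fl/fl (3707 to 5217, 1763 to 3636) and 3052 in STAT5 cKO (3035 to 4458, 1827 to 2836), and for 4T1 CM against DMEM 4835 in STAT5 fl/fl (4097 to 6408, 2668 to 4687). For 4T1 CM against rmGM-CSF in STAT5 fl/fl they were 4023 (3234 to 5637, 1721 to 3874), and for the interactions 411 (406 to 662, 132 to 283) and 170 (87 to 477, 26 to 102). At this depth differences of H2-Oa and H2-Ob, with at most 16 and 33 counts, could not be resolved, and with 2 STAT5 fl/fl mice the genotype values rest on few animals.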
